A study of Mus musculus with 8 samples.

Results

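The 45 genes described here carry out or control the mitotic cell cycle, and they were compared between the iron positive and the iron negative cell fraction of mouse fibrosarcomas. The genes were listed by name: 14 act mainly in S phase, 19 in G2 and mitosis (G2/M), and 12 belong to the cyclin-dependent control of entry into the cycle. Each was found by mapping transcript identifiers to gene symbols and summing its transcripts. All 45 were found among 35975 genes with a mapped transcript, and all 45 passed the filter on low counts, which left 13343 genes for the tests.

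The tumors were syngeneic fibrosarcomas grown under the skin of C57BL/6 mice of WT genotype. They were digested with collagenase b and DNase I, and red cells were lysed. The remaining cells ran over magnetic columns, which gave an eluate of retained cells (iron positive) and a flowthrough (iron negative). Bulk RNA sequencing of total RNA gave 8 libraries, 4 per fraction, and each of the tags 3L, 3R, 4R and 5L occurs in both fractions. All groups share the genotype and the tumor model, no treatment is named, and the labels give neither the age of the mice nor a sort by surface antibody. The labels do not say what a tag stands for or whether different tags are different mice. The p-values therefore measure the spread between these libraries, which may in part be technical.

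Depth was 19.04 to 24.31 M estimated counts per library. Macrophage transcripts were abundant in all 8 libraries: the summed level of 17 macrophage markers was 36406 to 40282 CPM (counts scaled to the size of the library, with TMM factors) in the iron negative and 27243 to 36168 in the iron positive fraction, and 6 of the 17 were called lower in the latter. The labels name the tumor as the source tissue, and fibroblast and fibrosarcoma markers, 12 genes, summed to 140 to 424 CPM in the iron negative fraction. In the iron positive fraction these markers summed to 528 (3L), 4976 (3R), 1832 (4R) and 591 (5L) CPM, and 13 endothelial markers to 238 (3L), 1795 (3R), 1112 (4R) and 311 (5L) CPM against 70.2 to 119 in the iron negative fraction. The iron positive libraries 3R and 4R thus stood apart from 3L and 5L in these 2 lists. Other lists had other orders: 7 neutrophil markers summed to 120 (3L), 73.0 (3R), 148 (4R) and 90.5 (5L) CPM in the iron positive and 71.8 to 84.7 CPM in the iron negative libraries, with 3 of 6 tested called higher. The 7 skeletal muscle markers summed to 54.2 (3L), 74.9 (3R), 35.1 (4R) and 23.8 (5L) CPM against 2.87 to 4.92 CPM, with all 7 called higher.

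A dividing cell copies its DNA in S phase and separates the copies in mitosis. Licensing factors such as Cdc6 and Cdt1 load the MCM helicase onto origins of replication in G1, and the sliding clamp PCNA then holds the polymerases on the template. D-type cyclins with Cdk4 or Cdk6, and later E-type cyclins with Cdk2, phosphorylate the retinoblastoma protein and release the E2F factors that switch on replication genes. Cyclins A and B with Cdk1 drive mitosis, the spindle checkpoint kinases hold back anaphase until chromosomes are attached, and inhibitors of the Cip/Kip and INK4 families restrain the kinases. In tumors, resident and recruited macrophages can themselves divide, so transcripts of this program need not come from the tumor cells.

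The genes of the S phase and G2/M groups are known to be switched on through different promoter elements, and the members' promoters are shown here by the words they hold. RefSeq promoters (GRCm38.p6; 250 bases before to 50 after the annotated start) were at hand for 36 of the 45 members, and 3 words were sought on both strands of each window of 300 bases. An E2F word (TTTGGCGC, TTTCGCGC, TTTCCCGC or TTTGCCGC) occurred in 6 of 12 S phase promoters, 1 of 16 G2/M promoters and 1 of 8 control promoters, against 2.26% of 32851 promoters of all genes. The word TTTGAA, the core of the cell cycle genes homology region (CHR) that represses and times G2/M genes, occurred in 1 of 12 S phase, 12 of 16 G2/M and 0 of 8 control promoters, against 17.9% of all. The word CCAAT, bound by NF-Y, occurred in 8 of 12, 15 of 16 and 3 of 8, against 37.4% of all. Overlapping matches, such as E2F words on opposite strands, were counted separately. A match is a description of the letters and not evidence of binding.

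The 250 bases upstream of the RefSeq start are shown for a member of each group described below, 5′ to 3′ along the gene's own strand, with all matches to the 3 words in capitals (a word on the other strand appears as its reverse complement, such as ATTGG for CCAAT). Mcm6, a helicase subunit, lies on the minus strand with its upstream bases at chr1:128359706-128359955 and holds 3 E2F and 2 CCAAT matches. Top2a, the topoisomerase that untangles replicated chromosomes, lies on the minus strand with its upstream bases at chr11:99024190-99024439 and holds 2 TTTGAA and 6 CCAAT matches. Ccnd3, a D-type cyclin, lies on the plus strand with these bases at chr17:47593217-47593466, within the span of longer annotated transcripts, and holds 1 CCAAT match and none of the other words.
Mcm6: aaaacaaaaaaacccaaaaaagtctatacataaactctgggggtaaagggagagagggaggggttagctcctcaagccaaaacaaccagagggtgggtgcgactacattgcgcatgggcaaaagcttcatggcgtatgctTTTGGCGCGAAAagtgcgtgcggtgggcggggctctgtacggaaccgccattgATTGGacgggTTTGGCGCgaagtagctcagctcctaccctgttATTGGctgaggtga
Top2a: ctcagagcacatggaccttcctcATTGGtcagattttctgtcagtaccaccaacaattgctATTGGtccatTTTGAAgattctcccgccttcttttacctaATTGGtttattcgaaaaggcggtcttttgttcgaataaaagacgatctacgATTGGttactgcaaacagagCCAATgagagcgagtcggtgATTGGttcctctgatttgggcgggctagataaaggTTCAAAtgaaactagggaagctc
Ccnd3: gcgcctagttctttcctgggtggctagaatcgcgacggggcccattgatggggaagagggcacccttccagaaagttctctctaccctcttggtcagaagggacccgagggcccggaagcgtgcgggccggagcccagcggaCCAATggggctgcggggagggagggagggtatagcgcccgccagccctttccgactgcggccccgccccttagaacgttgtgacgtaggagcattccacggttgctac
The Mcm6 stretch carries E2F words and no TTTGAA, the Top2a stretch the reverse, and the Ccnd3 stretch neither. Other members of these groups differ: the same stretch of Mcm2 holds 1 TTTGAA and no E2F word, and that of Bub1b holds no TTTGAA.

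Most of the 45 genes were slightly lower in the iron positive fraction, and nearly all of these differences missed the threshold. On the scale of the trimmed mean of M values (TMM), 41 of 45 log2 fold changes (iron positive minus iron negative) were negative, with a median of -0.22 against -0.01 over all genes tested. Bub1b alone passed the threshold and fell, which is 2.22% of the members, where 5.21% of all genes were called lower; no member was called higher, where 8.49% of all genes were (quasi-likelihood test of edgeR, with the Benjamini-Hochberg adjusted p over all genes below 0.05). At an unadjusted p under 0.05, 14 of the 45 members were lower and 1, Ccnd3, was higher, against 1868 lower and 2278 higher of all 13343 genes. In bulk RNA, fewer cycling cells and less of these transcripts per cell cannot be told apart.

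The tags pair the libraries, and a fit that takes the tag as a block called more members. With the block, edgeR called 14 members lower (31.1% of members, against 9.39% of all genes) and none higher (12.8% of all genes). These 14 were 9 of the 14 S phase genes, 3 of the 19 G2/M genes (Bub1b, Top2a and Mki67) and 2 of the 12 control genes (Ccnd1 and Ccnd2). The count rested on particular tags: leaving out both libraries of 1 tag, the blocked fit called 3 members lower without 3L (Mcm3, Mcm4 and Mcm7), 18 without 3R, 0 without 4R and 13 without 5L. The shares of all genes called lower in those 4 fits were 2.32%, 6.07%, 1.65% and 7.31%, and 17 members had an unadjusted p under 0.05 and were lower in the fit without 4R.

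**Figure D1:**
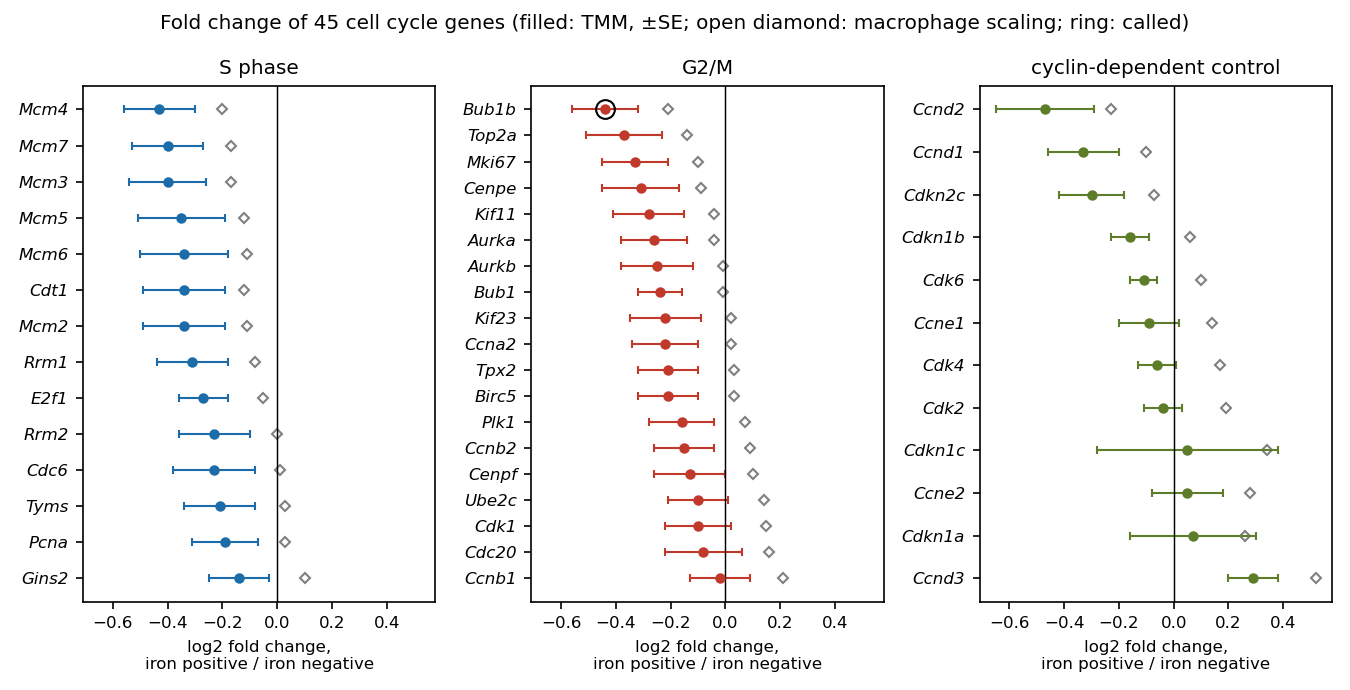
Log2 fold change of each of the 45 genes, iron positive over iron negative, with 4 libraries per fraction. Filled circles are edgeR estimates on the TMM scale with bars of 1 SE, open diamonds the same genes with libraries scaled to macrophage markers, and the ring marks the only gene called. All 14 S phase and all 19 G2/M circles lie left of 0, whereas the control genes range from -0.47 (Ccnd2) to 0.29 (Ccnd3).

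The sign against 0 is set by the scale, which shifts all genes together. When libraries were scaled to the summed counts of the macrophage markers, the median of all genes moved from -0.01 to 0.21 and that of the members from -0.22 to 0.02, with 20 members negative and 25 positive, as against 2092 and 11251 of all genes. No member was called by edgeR on that scale, where 0.15% of all genes were called lower and 12.4% higher, and at an unadjusted p under 0.05 there were 0 lower and 1 higher. Relative to the median of all genes, the members stood at -0.21 with TMM and at -0.20 with macrophage scaling. The same values were -0.32 and -0.31 for the S phase genes, -0.21 and -0.19 for the G2/M genes, and -0.07 and -0.06 for the control genes. Since the scaling moves all genes by about the same amount, the closeness of these values follows from its construction and is no support. With the block and macrophage scaling together, no member was called lower (1.19% of all genes) and 2 were called higher (22.3% of all genes). These were Ccnd3 (0.49, adjusted p = 0.0214 by edgeR) and Cdkn1a (0.27, adjusted p = 0.0386 by edgeR).

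S phase genes held the lowest median of the 3 groups. All 14 log2 fold changes were negative, from -0.43 (Mcm4) to -0.14 (Gins2), with a median of -0.33, and 9 of 14 remained negative with macrophage scaling. None was called by edgeR without the block, and DESeq2 called Mcm3, Mcm4 and Mcm7 lower. At an unadjusted p under 0.05 by edgeR, 7 were lower, against 1868 lower of all 13343 genes. Over all members DESeq2 called 6 lower and 1 higher (4.82% and 8.97% of its genes). The iron positive library was below the iron negative library of its tag in all 4 tags for 11 of the 14 (78.6%, against 23.9% of all genes). No S phase gene had all iron positive libraries below all iron negative ones. Iron negative 4R was the lowest of its fraction for 12 of the 14 and iron negative 3R for the other two.

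The MCM helicase, the ring of 6 subunits that unwinds DNA at the fork, gave the most even picture. Mcm2 to Mcm7 had log2 fold changes between -0.34 and -0.43, and each was lower in all 4 tags (23.9% of all genes). All 6 were called lower with the block (9.39% of all genes), at adjusted p from 0.00883 (Mcm4) to 0.0409 (Mcm6) by edgeR. These calls rested on particular tags: the blocked fit called only Mcm3, Mcm4 and Mcm7 without 3L, and 0 members without 4R. Without the block their adjusted p ran from 0.0683 to 0.180. With macrophage scaling the 6 values lay between -0.20 and -0.11, with a smallest adjusted p of 0.341 by edgeR. Mcm3 (chr1:20802968-20820312) was at 146 (3L), 132 (3R), 104 (4R) and 147 (5L) CPM in the iron negative and 90.5, 108, 82.9 and 119 CPM in the iron positive libraries, in the same order of tags. Every tag showed a lower iron positive value, but iron positive 5L and 3R exceeded iron negative 4R, so the groups overlapped. The log2 fold change of Mcm3 was -0.40 ± 0.14 (SE, n = 4), with adjusted p = 0.0983 by edgeR and 0.0154 with the block.

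Mcm6 (chr1:128331590-128359664) followed the same order, with 179, 139, 121 and 171 CPM in the iron negative and 112, 126, 97.1 and 147 CPM in the iron positive libraries. The largest step was in 3L and the smallest in 3R, and again 2 iron positive libraries lay above iron negative 4R. Its log2 fold change was -0.34 ± 0.16 (SE, n = 4), with adjusted p = 0.180 by edgeR and 0.0409 with the block. Mcm4, named after its values were seen because it lay nearest the threshold among the S phase genes, stood at -0.43 ± 0.13 with adjusted p = 0.0683 by edgeR.

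Pcna, the sliding clamp (chr2:132249162-132253314), was the most abundant S phase gene per length, with a mean of 220 TPM (the authors' level scaled by transcript length and library). Its levels were 267, 204, 197 and 246 CPM in the iron negative and 209, 188, 176 and 230 CPM in the iron positive libraries in the order 3L, 3R, 4R and 5L. All tags were lower, with the largest step in 3L, and the fractions overlapped widely. The log2 fold change was -0.19 ± 0.12 (SE, n = 4; adjusted p = 0.337 by edgeR, 0.0787 with the block), and with macrophage scaling it was 0.03. That is smaller than the values of the helicase subunits, but the difference was not tested.

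Of the other S phase genes, Rrm1 (the large subunit of ribonucleotide reductase, which makes deoxynucleotides), Cdt1 and the transcription factor E2f1 were called lower with the block, where their log2 fold changes were -0.32, -0.33 and -0.27. Rrm2, the small subunit, had -0.23, the licensing factor Cdc6 -0.23, thymidylate synthase Tyms -0.21 and the GINS subunit Gins2 -0.14, and none of these 4 was called in either fit. Tyms, Cdc6 and Gins2 were the 3 S phase genes whose iron positive library was the higher of the pair in tag 3R.

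**Figure D2:**
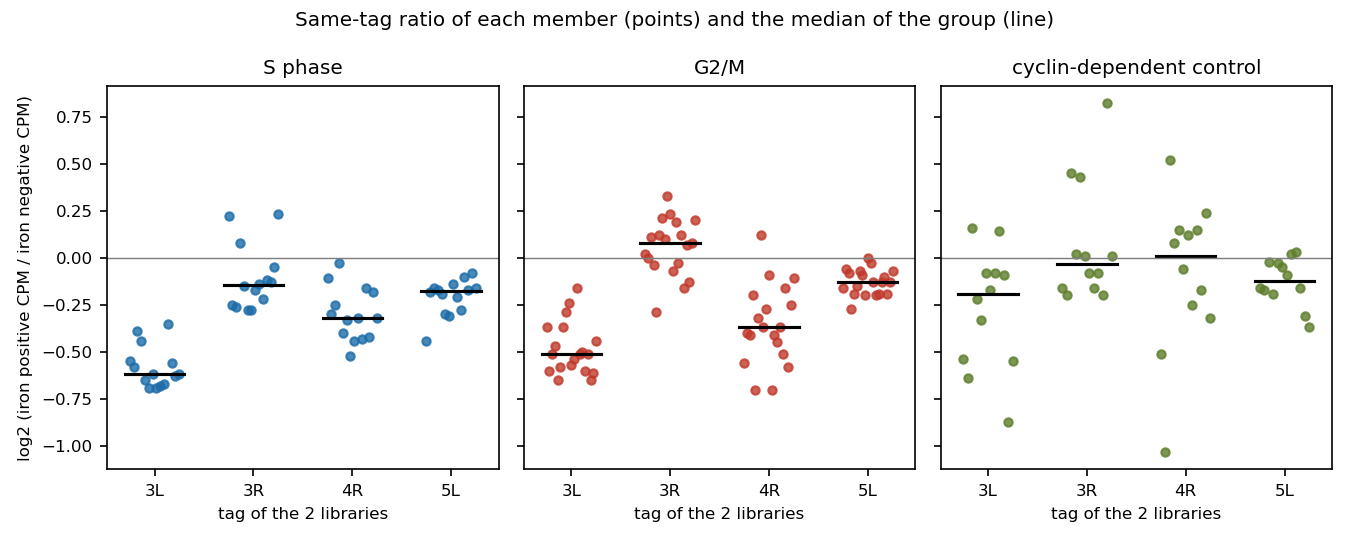
Log2 ratio of iron positive to iron negative CPM within each tag, for every member (points) and as the median of each group (line). S phase points lie below 0 in tags 3L, 4R and 5L and mostly in 3R, G2/M points lie mostly above 0 in 3R, and control points lie mostly below 0 in 3L and 5L (10 of 12 each) and on both sides in 3R and 4R (6 of 12 below).

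On the TMM scale, most G2/M genes were lower in the iron positive library in 3 tags and not in the fourth. All 19 log2 fold changes over the fractions were negative on that scale, from -0.44 (Bub1b) to -0.02 (Ccnb1), with a median of -0.22. With macrophage scaling, 8 of the 19 were negative and 11 positive, with a median of 0.02. Within tags, the iron positive library was the lower for 19 of 19 genes in 3L (median log2 ratio -0.51), 18 of 19 in 4R (-0.37) and 19 of 19 in 5L (-0.13), but for 6 of 19 in 3R (0.08). Over all genes the iron positive library was the lower for 49.2% in 3L, 52.1% in 4R, 53.1% in 5L and 49.3% in 3R. The S phase genes had 14 of 14 in 3L (-0.62), 14 of 14 in 4R (-0.32), 14 of 14 in 5L (-0.17) and 11 of 14 in 3R (-0.15). The 3R pair was thus the only pair in which most G2/M genes were higher in the iron positive library, and the difference between tags has no replicate and was not tested.

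Marker lists of other cell types differed between the tags. Iron positive 3R had the highest fibroblast and endothelial sums and the lowest macrophage sum, and 4R had the next highest of the former, yet 4R was among the lowest iron positive libraries in the summed G2/M level (753 CPM, against 734 in 3L, 994 in 3R and 992 in 5L). The iron negative libraries lay close together in that sum, at 1072 (3L), 1002 (3R), 1002 (4R) and 1091 (5L) CPM. Iron positive 3R and 5L therefore lay just below the lowest iron negative sum, and 3L and 4R further below it. Within tags, the sum fell from 1091 to 992 CPM in 5L and from 1002 to 994 CPM in 3R. The neutrophil sum was highest in these same 2 iron positive libraries, 3L and 4R (120 and 148 CPM, against 73.0 in 3R and 90.5 in 5L), and the sum of 4 monocyte markers was lowest there (120 CPM in 3L and less in 4R, against 164 in 3R and 146 in 5L, and 194 to 232 in the iron negative fraction). Of the 4 monocyte markers, 1 had a negative log2 fold change over the fractions and 3 had positive ones, so the sum does not stand for each marker. The part of other cell types in the G2/M values was not tested.

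**Figure D3:**
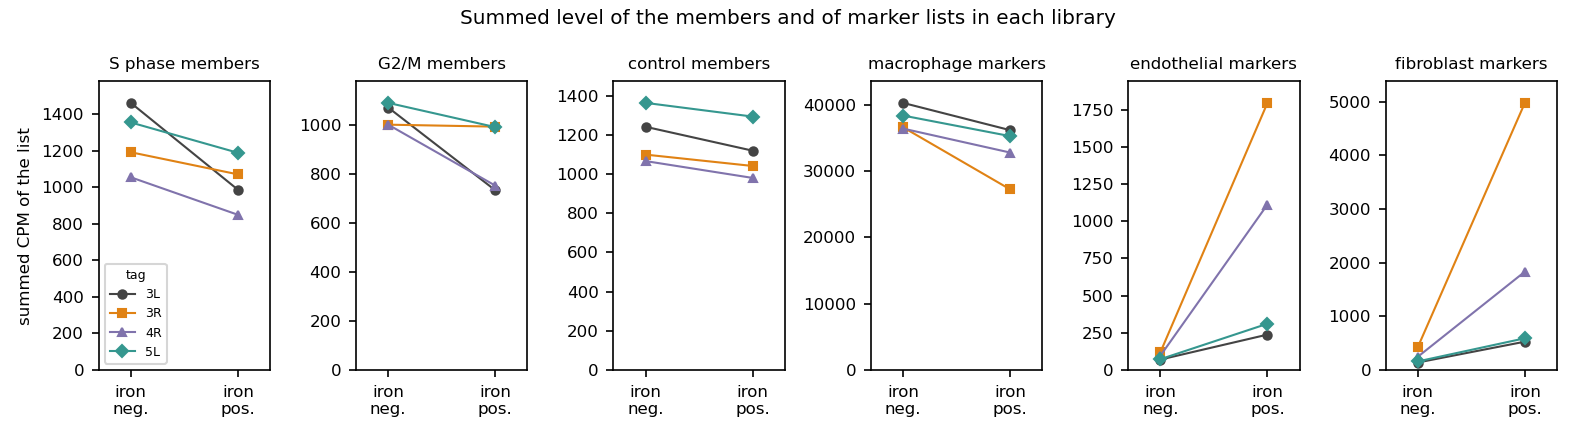
Summed TMM-scaled CPM of the 3 member groups and of macrophage, endothelial and fibroblast marker lists in each of the 8 libraries, with lines joining the libraries of a tag and all axes starting at 0. The G2/M sum drops most in 3L and 4R, less in 5L (1091 to 992 CPM) and hardly in 3R (1002 to 994 CPM). The endothelial and fibroblast sums climb most in 3R and next most in 4R.

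Bub1b, the checkpoint kinase BubR1 that restrains the anaphase-promoting complex, was the member that passed the threshold (chr2:118598211-118641591). It was at 75.7 (3L), 74.1 (3R), 72.3 (4R) and 75.4 (5L) CPM in the iron negative and at 48.3, 60.8, 44.4 and 66.2 CPM in the iron positive libraries. All iron positive values lay below all iron negative values, and 3L and 4R were the lowest. Bub1b fell by 0.44 ± 0.12 on the log2 scale (SE, n = 4), with adjusted p = 0.0454 by edgeR, 0.0205 with the block and 0.00741 by DESeq2. The call is close to the threshold: it was lost when any iron negative library, iron positive 3L or iron positive 4R was left out, when library totals or macrophage scaling replaced TMM (macrophage scaling: -0.21, adjusted p = 0.388 by edgeR), and with limma voom, where adjusted p was 0.0664. Leaving out 3L, 3R or 4R of the iron negative fraction left 0 genes called of all tested, so those fits say little of Bub1b in particular. On the other side of the threshold lay Mcm4 (0.0683) and Ccnd3 (0.0696).

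Top2a (chr11:98992943-99024189) was at 217, 193, 179 and 207 CPM in the iron negative and 138, 176, 119 and 181 CPM in the iron positive libraries in the order 3L, 3R, 4R and 5L. Each tag was lower, by far the most in 3L and 4R, and only iron positive 5L reached above the lowest iron negative value. The log2 fold change was -0.37 ± 0.14 (SE, n = 4), with adjusted p = 0.105 by edgeR, 0.0362 with the block and 0.0480 by DESeq2. Mki67, which encodes the proliferation antigen Ki-67, is named here after its values were seen: its iron positive values of 126 to 177 CPM all lay below its iron negative values of 180 to 194 CPM. Its log2 fold change was -0.33 ± 0.12, with adjusted p = 0.0945 by edgeR, 0.0382 with the block and 0.0406 by DESeq2. With Bub1b and Ccnd2 it was among the 3 members without overlap between the fractions (6.67% of members, against 10.3% of all genes with the iron positive libraries all lower; none was without overlap and higher, against 11.2% of all genes).

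Cdk1, the kinase that drives entry into mitosis (chr10:69335146-69352938), showed no common direction across the tags. It was at 52.0, 44.1, 43.7 and 48.5 CPM in the iron negative and at 35.0, 51.6, 41.2 and 48.5 CPM in the iron positive libraries. The iron positive value was the lower in 3L and 4R, the higher in 3R and the same to 3 digits in 5L. The log2 fold change was -0.10 ± 0.12 (SE, n = 4; adjusted p = 0.637 by edgeR), and it was 0.15 with macrophage scaling and 0.06 without tag 3L. Ube2c, the E2 enzyme of the anaphase-promoting complex (chr2:164769898-164778822), was at 38.0, 33.4, 36.3 and 39.9 CPM against 28.1, 38.3, 33.6 and 38.0 CPM, again lower in 3L and higher in 3R. Its log2 fold change was -0.10 ± 0.11 (SE, n = 4; adjusted p = 0.578 by edgeR).

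Among the other G2/M genes, cyclin A2 (Ccna2, -0.22), the B-type cyclins Ccnb1 (-0.02) and Ccnb2 (-0.15), and the polo-like kinase Plk1 (-0.16) had small log2 fold changes, as did Cdc20 (-0.08), an activator of the anaphase-promoting complex. Values of similar size or slightly larger were those of the spindle motors Kif11 (-0.28) and Kif23 (-0.22) and the Aurora kinases Aurka (-0.26) and Aurkb (-0.25). The same held for survivin (Birc5, -0.21), the spindle factor Tpx2 (-0.21) and the kinetochore proteins Cenpe (-0.31) and Cenpf (-0.13). It also held for the checkpoint kinase Bub1 (-0.24, unadjusted p = 0.0152 by edgeR). None of these 14 was called with or without the block. Of the 19 G2/M genes, 6 were lower in all 4 tags (31.6%, against 23.9% of all genes), namely Mki67, Top2a, Bub1, Bub1b, Cenpe and Kif11.

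**Figure D4:**
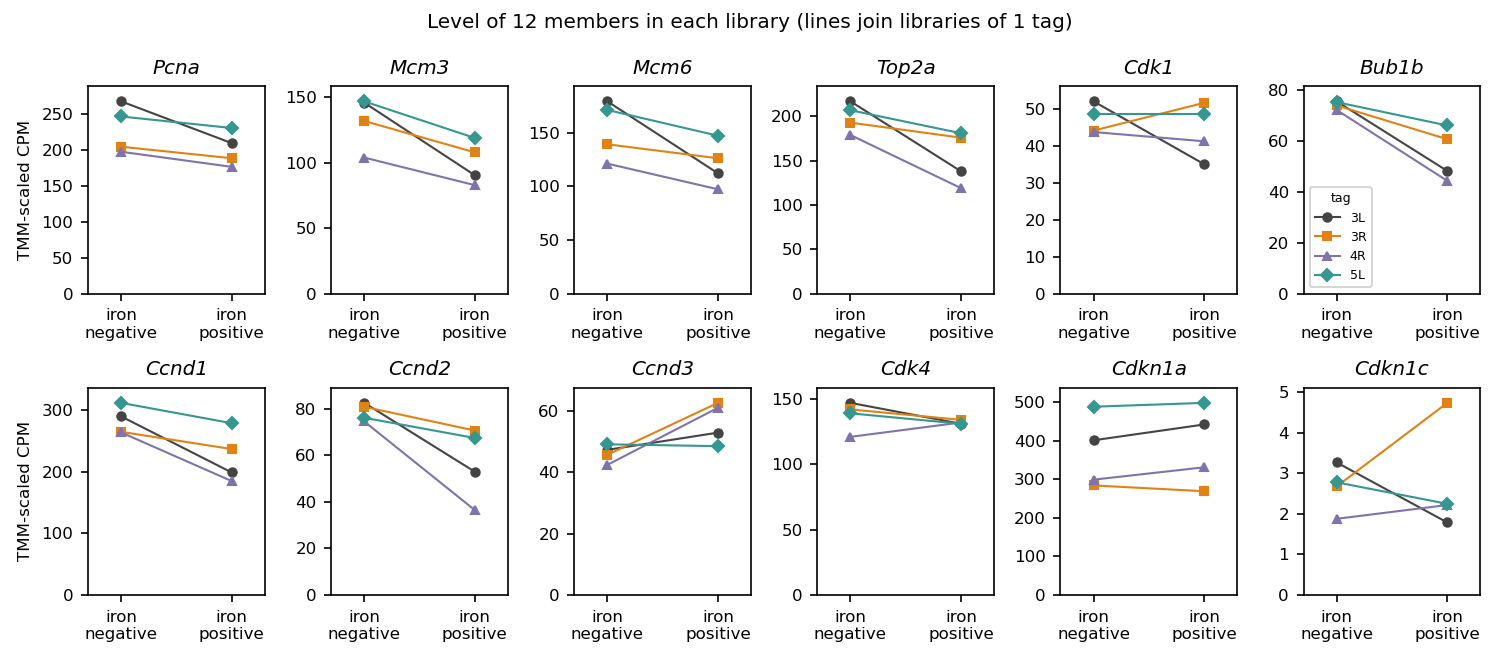
TMM-scaled CPM of 12 members in each library, with a line for each tag and axes that start at 0. Mcm3, Mcm6, Top2a and Bub1b slope down in every tag, Cdk1 slopes up in 3R, Ccnd1 and Ccnd2 slope down while Ccnd3 slopes up in 3 of 4 tags, and Cdkn1a keeps the order of the tags in both fractions.

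The control genes had log2 fold changes of both signs. Of the 12, 8 log2 fold changes were negative and 4 positive (Ccnd3, Ccne2, Cdkn1a and Cdkn1c), with a median of -0.07. None was called by edgeR without the block. At an unadjusted p under 0.05, 3 were lower and 1 higher, against 1868 lower and 2278 higher of all 13343 genes. Within tags the iron positive library was the lower for 10 of 12 in 3L, 6 of 12 in 3R, 6 of 12 in 4R and 10 of 12 in 5L. Only Ccnd1, Ccnd2 and the inhibitor Cdkn1b were lower in all 4 tags.

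The D-type cyclins, which carry mitogen signals to Cdk4 and Cdk6, differed in sign. Ccnd1 (chr7:144929931-144939925) was at 290, 265, 264 and 312 CPM in the iron negative and 199, 237, 185 and 279 CPM in the iron positive libraries in the order 3L, 3R, 4R and 5L. All tags were lower, with the lowest values in iron positive 3L and 4R and an overlap through 5L. The log2 fold change was -0.33 ± 0.13 (SE, n = 4), with adjusted p = 0.124 by edgeR and 0.0329 with the block.

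Ccnd2 and Ccnd3 are named after their values were seen. Ccnd2 (chr6:127125162-127152193) was at 82.6, 80.9, 74.6 and 76.2 CPM against 53.0, 70.7, 36.5 and 67.5 CPM, so the fractions did not overlap and iron positive 4R was lowest. Its log2 fold change was -0.47 ± 0.18 (SE, n = 4), with adjusted p = 0.122 by edgeR and 0.0482 with the block. Without iron positive 4R it was -0.30 (adjusted p = 0.125 by edgeR), and in the blocked fit without tag 4R it was -0.33 (adjusted p = 0.133 by edgeR), so the value leans on that library. Ccnd3 (chr17:47505051-47599691) was at 47.3, 45.7, 42.4 and 49.1 CPM against 52.9, 62.6, 61.0 and 48.5 CPM, higher in 3L, 3R and 4R and level in 5L. Its log2 fold change was 0.29 ± 0.09 (SE, n = 4), with adjusted p = 0.0696 by edgeR, 0.0845 with the block, 0.0479 by DESeq2 and 0.104 by limma voom. By edgeR without 1 iron positive library, adjusted p was 0.0723 (3L), 0.121 (3R), 0.173 (4R) and 0.0236 (5L). Ccnd3 was the only D-type cyclin with a positive log2 fold change, and in every fit run its log2 fold change lay above those of Ccnd1 and Ccnd2, but the difference between them was not tested.

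As shares of the summed TPM of the 3 D-type cyclins, which compares them per length within a library, Ccnd3 held 21.5%, 24.0%, 23.8% and 21.6% in the iron negative libraries 3L, 3R, 4R and 5L. In the iron positive libraries it held 32.9%, 31.3%, 38.1% and 24.8%, higher in each tag, and the lowest iron positive share lay above the highest iron negative one. Ccnd1 held 63.1%, 59.9%, 63.4% and 66.4% against 55.8%, 54.8%, 53.7% and 63.8%, lower in each tag. Ccnd2 held 15.3%, 16.0%, 12.8% and 11.9% against 11.3%, 13.9%, 8.25% and 11.5%. Ccnd1 remained the main D-type cyclin in all 8 libraries. These shares were computed after the values of the 3 genes were seen and carry no test.

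The kinases that these cyclins bind had small log2 fold changes. Cdk4 (chr10:127063534-127067920), the second most abundant control gene at a mean of 109 TPM, was at 147, 142, 121 and 139 CPM in the iron negative and 131, 134, 132 and 131 CPM in the iron positive libraries. The iron positive values lay within a narrow band inside the iron negative range, and the log2 fold change was -0.06 ± 0.07 (SE, n = 4; adjusted p = 0.586 by edgeR; 0.17 with macrophage scaling). Cdk6 had -0.11 ± 0.05 (adjusted p = 0.187 by edgeR) and Cdk2, the partner of the E-type cyclins, -0.04 ± 0.07 (adjusted p = 0.723 by edgeR). The E-type cyclins Ccne1 (-0.09) and Ccne2 (0.05) were weakly expressed, at mean TPM of 8.06 and 7.93, and neither was called.

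Among the inhibitors of these kinases, levels were similar between the fractions within a tag for the most abundant. This was Cdkn1a, which encodes p21 and is a target of p53 (chr17:29090976-29100727), at a mean of 292 TPM the most abundant member of all. It was at 401, 284, 299 and 488 CPM in the iron negative and 442, 269, 331 and 498 CPM in the iron positive libraries in the order 3L, 3R, 4R and 5L. Libraries 3L and 5L were high in both fractions, and within a tag the fractions lay close together. The log2 fold change was 0.07 ± 0.23 (SE, n = 4; adjusted p = 0.878 by edgeR, 0.544 with the block), and its sign changed to -0.08 without iron positive 5L. Cdkn1b (p27) had -0.16, Cdkn2c (p18) -0.30 and Cdkn1c (p57) 0.05 with the widest error of any member, 0.33, at a mean of 3.27 TPM; none was called in either fit.

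The wider pathway was taken from 3 further lists. Of 45 other replication genes, 1 was called lower (2.22%, against 5.21% of all genes) and 0 higher (8.49% of all genes), with a median of -0.20. The gene called was Gins4, a subunit of the GINS complex of the replicative helicase, at -0.32 ± 0.06 (adjusted p = 0.0177 by edgeR), with 31.4, 29.0, 29.5 and 28.2 CPM in the iron negative and 23.1, 23.0, 24.2 and 24.3 CPM in the iron positive libraries in the order 3L, 3R, 4R and 5L. Of 51 other mitosis genes, 1 was called lower (1.96%, below the same 5.21%) and 0 higher, with a median of -0.22. That gene was Espl1, which encodes separase, the protease that splits sister chromatids, at -0.43 ± 0.11 (adjusted p = 0.0387 by edgeR), with 72.7, 70.3, 66.9 and 70.2 CPM against 49.7, 54.8, 41.7 and 62.3 CPM. Neither gene overlapped between the fractions. The iron positive libraries were all lower for 6.67% of the other replication and 9.8% of the other mitosis genes, against 10.3% of all genes. Within tags, other mitosis genes were lower in the iron positive library for 50 of 51 in 3L, 18 of 51 in 3R, 45 of 51 in 4R and 43 of 51 in 5L. With the block, 6 other replication and 4 other mitosis genes were called lower (13.3% and 7.84%, against 9.39% of all genes).

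Of 33 other control genes, 2 were called lower and 1 higher (6.06% and 3.03%, against 5.21% and 8.49% of all genes), with a median of -0.04. With the block, 5 of the 33 were called lower (15.2%, against 9.39% of all genes) and 1 higher (12.8% of all genes). Trp53, which encodes p53, was at 95.3, 89.1, 88.5 and 97.2 CPM against 74.0, 84.8, 72.9 and 79.4 CPM, a log2 fold change of -0.25 ± 0.06 (adjusted p = 0.0363 by edgeR). E2f8, a repressor of the E2F family, was at 33.4, 30.1, 26.2 and 29.2 CPM against 18.0, 24.6, 18.3 and 24.7 CPM, a log2 fold change of -0.47 ± 0.13 (adjusted p = 0.0469 by edgeR). Both fell without overlap between the fractions, as did 9.09% of the other control genes and 10.3% of all genes. Gadd45a, a stress-induced inhibitor of cell cycle progress, rose without overlap (3 of the 33 genes did, against 11.2% of all genes). It went from 18.1, 15.3, 17.1 and 22.4 CPM to 40.2, 24.6, 42.3 and 31.8 CPM in the order 3L, 3R, 4R and 5L. Its log2 fold change was 0.93 ± 0.18 (adjusted p = 0.0198 by edgeR), and with macrophage scaling it was 1.13 with adjusted p = 0.0104 by edgeR, so Gadd45a was higher on both scales. Gins4, Espl1, Trp53 and E2f8 stayed negative with macrophage scaling (-0.10, -0.20, -0.02 and -0.24) and were not called there.

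**Figure D5:**
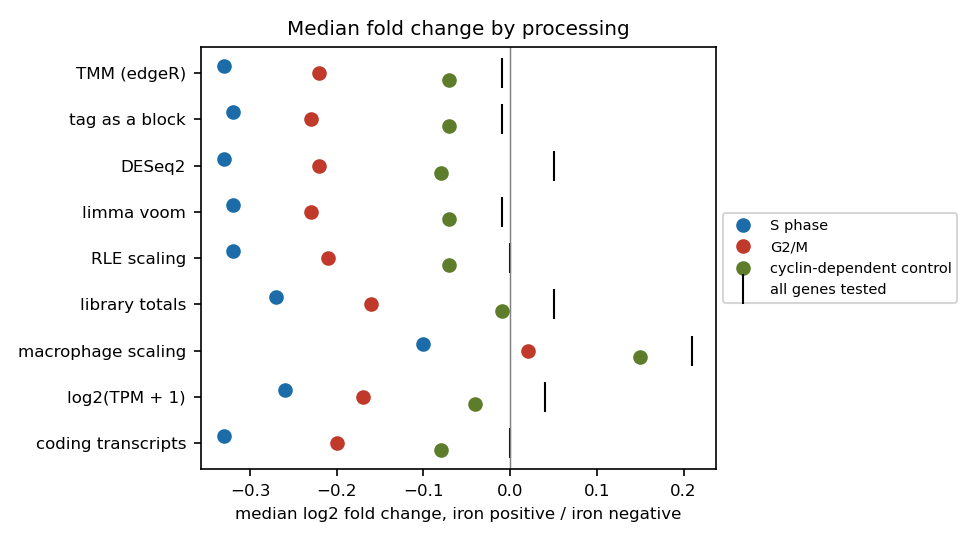
Median log2 fold change of the 3 member groups (points) and of all genes tested (vertical ticks) under 9 ways of processing. The S phase median is the lowest and the control median the highest of the 3 groups in each row, and macrophage scaling moves all 4 medians to the right together, to 0.21 for all genes.

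Some levels rest on transcripts that do not encode the protein. In 26 members at least 90% of the TPM fell on protein-coding transcripts, and in 7 less than 60% did. The most abundant annotated transcript was a retained intron form for Cdk1 (46.4% of its TPM) and Gins2 (53.9%), and a form marked for nonsense-mediated decay for Tyms (34.9%). For Bub1b 80.4% of TPM fell on coding transcripts, and when coding transcripts alone were summed its adjusted p was 0.0528 by edgeR. The sums do not use strand, and some members overlap an expressed gene on the opposite strand, among them Cdk4 with Tspan31 by 641 bases, Ccne2 with Ints8 by 5622 bases, Ccnd3 with Bysl by 361 bases and Mcm7 with Ap4m1 by 421 bases. The overlaps are of whole gene spans, introns included, so they do not measure how far the values of these members are uncertain.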

How the data were processed

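Libraries of total RNA were sequenced from the iron positive and the iron negative fraction of mouse tumors, 4 per fraction. The authors' tables came from kallisto 0.46.2 on mm10, per the submitters' processing notes; which transcript release they used was not found in the labels or files. Per the file headers, the authors deposited for each transcript an estimated count, which is not normalized, a TPM value, which takes account of effective length and depth, and lengths in bases as other values. Replicates were not pooled.

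Of 119414 transcripts, 116728 matched GENCODE M21 (GRCm38) without the version; the rest held 0.888% to 0.961% of the counts and were left out. Estimated counts were summed per gene, without strand, and rounded. Totals of 19.04 to 24.31 M counts and the SE of each fold change give the precision.

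In the main test, edgeR 4.0.16 under R 4.3.3 fitted the fraction without other terms by quasi-likelihood, after filterByExpr and TMM, with Benjamini-Hochberg adjusted p under 0.05 over 13343 genes. SEs are the log2 fold change over the square root of F, which is approximate. CPM values are TMM-scaled. Alternatives were the tag as a block, DESeq2 1.42.0, limma 3.58.1 (voom, and log2 of TPM plus 1 or 0.1), other scalings and filters, and leaving out libraries. Chosen after seeing the data were sums over coding transcripts, and the block combined with macrophage scaling or with a tag left out. The fits without the block were run on simulated counts that had no tag effect and a spread per gene capped at the median. The blocked fit was not tested in this way.

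Tags pair the libraries: deviations from the fraction mean correlated, across genes, at 0.53 (3L), 0.52 (3R), 0.27 (4R) and 0.30 (5L) between same-tag libraries, all above the limit of 0.1, and the pairing comes from the tags in the labels. The highest correlation of each iron positive library with an iron negative library of another tag was 0.13 (3L), 0.21 (3R), 0.26 (4R) and 0.23 (5L). These too exceeded 0.1, and for 4R the same-tag value was hardly higher. No 2 libraries of a fraction agreed within counting noise (chi-square per gene 9.64 to 113). Members and lists were chosen with earlier results of these data known. Values in every library are given for members past the threshold and for the 3 members of each group with the highest mean TPM, and for other lists up to 3 called genes with the smallest adjusted p. Values of 2 marker genes are not reported here.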

Additional observations from a re-analysis of the deposited data

Results flagged for a closer look

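Cdkn1c, which encodes the inhibitor p57, had 1 iron positive library far from the others: 4.74 CPM in 3R against 1.79 (3L), 2.22 (4R) and 2.25 (5L). The gap to the nearest library was 0.847 of the range of the 4, which is above Dixon's critical value for a group of that size. It was the only such case among 90 groups examined (45 genes in each fraction), where chance gives about 1 in 20. The fibroblast and endothelial marker sums were also highest in iron positive 3R (4976 and 1795 CPM), and their part in this value was not tested.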

How the results depend on the processing

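In the fit without the tag, edgeR called 0 S phase, 1 G2/M and 0 control members lower and 0 higher, with 14 lower and 1 higher at an unadjusted p under 0.05. With the tag as a replicate block it called 9 S phase, 3 G2/M and 2 control members lower, and DESeq2 called 3 S phase and 3 G2/M members lower and 1 control member higher. The 1 G2/M call became 0 with limma voom, library totals, macrophage scaling, TPM plus 1, TPM plus 0.1, coding transcripts alone, and without tag 3L, 3R or 4R in both fractions (0 to 18 members lower at an unadjusted p under 0.05 in these fits). Of all genes, 0.406% were called lower without tag 3L in both fractions, 0.628% without 3R and 0% without 4R. Without tag 5L in both, 1 control member was called higher. Leaving out single libraries gave 0 to 2 S phase, 0 to 3 G2/M and 0 to 1 control members lower and 0 to 1 control member higher. The highest counts came without iron positive 5L (6 lower in all, where 7.25% of all genes were called lower). Without iron positive 3R 2 were lower (4.23% of all genes), and without iron positive 3L or 4R 0 were (3.6% and 1.59%). Leaving out any iron negative library also gave 0. In those fits only 0% to 0.088% of all genes were called lower, so they say little of the members in particular.

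In the blocked fit, 3 S phase and 0 G2/M members were lower without tag 3L. Without tag 3R, 9 S phase, 6 G2/M and 3 control members were lower, without 4R 0, and without 5L 8 S phase, 3 G2/M and 2 control members were lower and 1 control member higher. With the block and macrophage scaling, 0 G2/M members were lower and 2 control members higher. Reversed signs, of log2 fold changes that were not called, were Pcna 0.03, Cdk1 0.15, Ube2c 0.14 and Cdk4 0.17 with macrophage scaling. They were Pcna 0.03, Cdk1 0.11, Ube2c 0.11 and Cdk4 0.16 with the block added. Without tag 3L they were Cdk1 0.06 and Ube2c 0.01, and with the block Cdk1 0.05 and Ube2c 0.01. Cdkn1a ranged from -0.08 to 0.23 when single libraries were left out. The group medians with macrophage scaling were -0.10 (S phase), 0.02 (G2/M) and 0.15 (control), and over the fits that left out libraries without the block the S phase median ranged from -0.41 to -0.22 and the G2/M median from -0.31 to -0.11. The cause of these changes was not tested. Fits that leave out libraries rest on fewer samples.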
